A study of Mus musculus with 4 samples.

Results

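Expression of 9 transcription factor genes that direct the fate of epidermal cells was examined in sorted basal cells of the mouse epidermis at E16.5, in embryos that lost Srf from this tissue (cKO) and in embryos that kept 1 intact Srf allele (het). The genes were Trp63, Klf4, Klf5, Grhl3, Ovol1, Tfap2a, Tfap2c, Cebpb and Gata3, taken by the platform's gene symbol. They were 9 of 18193 genes with a probe set of a single symbol, and 21 probe sets of the array belonged to them.

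The cKO group held 2 arrays, Ko_1210 and KO_1261, from embryos with both Srf alleles floxed, YFP reporter alleles at ROSA26 and K14-Cre. The het group held 2 arrays, het_1210 and het_1261, from embryos with 1 floxed and 1 intact Srf allele and the same YFP alleles and K14-Cre. The design text names the het embryos wild type, and the strain label of these arrays reads only Rosa26. Ko_1210 and het_1210 are called the first pair and KO_1261 and het_1261 the second pair, after the numbers in their titles, which no label explains. All embryos thus carried K14-Cre, which is driven by the keratin 14 promoter and acts in the basal layer and in the cells that descend from it. Single, viable cells were sorted by α6 integrin, a basal cell surface protein, and by YFP. The number of cells and any pooling of embryos are not given in the sources used here. No label says that arrays came from separate embryos. Sex-linked transcripts, given below, differed between the 2 arrays of each group, so these arrays did not hold the same mix of embryos. The p-values measure the spread between these arrays, which may be technical in part.

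These factors work as a network in stratified epithelia. The protein p63, encoded by Trp63 and a relative of p53, sets up and maintains the basal layer, and the AP-2 factors encoded by Tfap2a and Tfap2c act with it in the commitment of the surface ectoderm. Klf5 is known for its role in proliferating basal cells, while Klf4, Grhl3, Ovol1, Cebpb and Gata3 serve the exit from the cell cycle, the spinous program and the skin barrier. Srf encodes serum response factor, which binds the CArG box and drives actin cytoskeletal and immediate early genes, and the series' title places its loss in the differentiation of this tissue.

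The mean differences of the 9 genes between cKO and het cells were small, and none passed a test. The differences, cKO minus het on the scale log2(signal + 1), ran from -0.21 for Cebpb to 0.19 for Trp63, with a median of 0.04, and 5 of the 9 were above 0. Over all 11053 tested genes the median was -0.02. With each array centred on its own median 8 of the 9 were above 0, a scaling under which the median over all 11053 genes was 0.098. None of the 9 genes passed limma (adjusted p under 0.05, Benjamini-Hochberg over all tested probe sets), where 0 of 11053 genes (0%) passed and 66 genes, 0.597%, had an unadjusted p under 0.05, none of them among the 9. Srf, the deleted gene, thus did not pass there either, so a missed call in this fit says little about the 9 genes. With the pair as a block, 97 genes (0.878%) passed in limma, 28 higher and 69 lower in cKO, and again 0 of the 9 did, the lowest adjusted p of their 20 tested probe sets being 0.728. With the block, 0 genes passed without a variance trend in limma, and 52 passed with median centring, 30 higher and 22 lower in cKO.

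Srf had a signal of 64.1 ± 23.0 in cKO and 971 ± 194 in het (SD, n = 2 each) at its brighter probe set, and whether this probe set lies in the floxed part is not known here. The poly-A spike-in controls, RNAs added before labelling, were brighter in the first pair than in the second, by 2.54-fold in cKO and by 2.43-fold in het, at 24 of 24 probe sets. The hybridization spike-in controls were brighter in the first pair too, by 1.73-fold in cKO and by 1.90-fold in het, at 18 of 18 probe sets. Each pair holds 1 array of each group, so the differences within the pairs are given beside the pooled ones. Sex-linked transcripts differed too: Xist, from the inactive X chromosome, had signals of 115 and 22802 in cKO (first pair, then second) and of 62.6 and 14338 in het, and the Y-linked gene Eif2s3y had signals of 1386 and 3.01 in cKO and of 1485 and 834 in het. Eif2s3y thus differed between the groups within the second pair, where genotype and the mix of embryos cannot be told apart. The part of embryo sex, of pooled embryos or of the handling of the pairs in the results below was not tested. The basal markers Krt5, Krt14, Krt15, Itga6, Itgb4 and Col17a1, of which 0 of 6 passed in either fit, were bright on all 4 arrays, with summed signals of 173438 and 129009 in cKO and of 189319 and 133908 in het. The suprabasal keratins Krt1 and Krt10 and the fibroblast matrix gene Dcn were bright as well on all arrays, with lowest signals of 12792, 24854 and 18828.

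**Figure D1:**
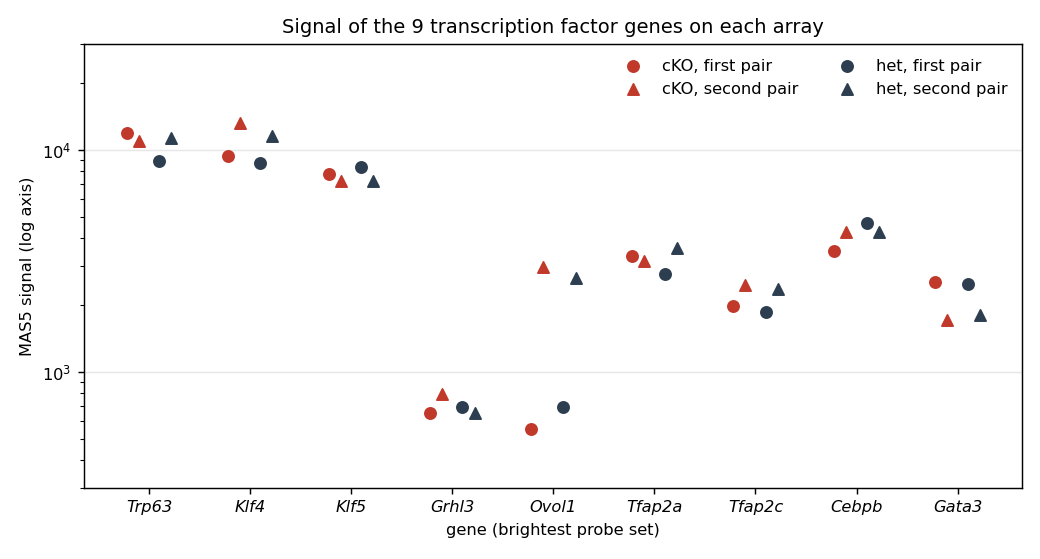
MAS5 signal (log axis) of the brightest probe set of each of the 9 genes on the 4 arrays, with cKO in red to the left of het in dark blue, circles for the first pair and triangles for the second. Within each gene the colours intermix, except that both cKO points of Cebpb lie just below both het points, and Ovol1 is set apart by its shape of marker, with 555 and 695 in the first pair and 2968 and 2637 in the second (cKO, then het).

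Sequence of the region before the gene start was available from RefSeq (build GRCm38.p6) for 5 of the 9 genes, with 2 starts for Tfap2a. The motifs below were searched on both strands in the 250 bases before each start. They were the CArG box, the binding motif of the deleted factor, GCCNNNGGC, the palindrome bound by AP-2 factors, and GGGCGG, the GC box bound by Sp and Klf proteins. The CArG box was found in 0 of 6 of these windows and in 1.47% of the 32851 windows of all genes. GCCNNNGGC was found in the windows of Gata3 and Klf4, against 13.7% of all windows, and GGGCGG in 6 of 6, against 32.7% of all windows. The share of G and C in the 6 windows ran from 47.6% for 1 window of Tfap2a to 81.6% for Cebpb, with 74.0% for Klf4 and 70.0% for Gata3, and a match of letters is a description, not a binding site. The 2 windows that hold the AP-2 palindrome are shown, 5′ to 3′ in the direction of the gene, with the palindromes in capitals.
Klf4, chr4:55532476-55532725, minus strand: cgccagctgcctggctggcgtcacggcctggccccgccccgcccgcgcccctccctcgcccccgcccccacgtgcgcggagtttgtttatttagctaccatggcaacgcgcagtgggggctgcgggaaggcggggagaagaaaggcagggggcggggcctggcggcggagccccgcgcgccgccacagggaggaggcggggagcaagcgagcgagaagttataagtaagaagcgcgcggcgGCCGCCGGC
Gata3, chr2:9878601-9878850, minus strand: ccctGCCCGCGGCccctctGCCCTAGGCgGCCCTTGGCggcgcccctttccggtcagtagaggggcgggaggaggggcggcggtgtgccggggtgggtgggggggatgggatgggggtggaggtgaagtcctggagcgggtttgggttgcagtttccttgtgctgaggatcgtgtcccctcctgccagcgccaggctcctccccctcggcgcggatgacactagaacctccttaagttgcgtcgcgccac
Klf4 had 1 palindrome, which ends at the start of the gene, and Gata3 had 3, all near the far end of its window. None of them overlapped a GC box, of which Klf4 had 4 and Gata3 had 2.

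Trp63 had the highest positive difference of the 9 genes, with 1 het array low. Its brightest probe set (1418158_at) had signals of 11963 on Ko_1210 and 10908 on KO_1261, against 8893 on het_1210 and 11310 on het_1261. The 3 signals other than that of het_1210 lay close together, and the groups overlapped. The difference was 0.19 (0.43 within the first pair and -0.05 within the second pair), with a 95% interval from -0.46 to 0.84 in limma without a block and from -0.09 to 0.47 with it. Of the other 3 probe sets of Trp63, 1452027_a_at had 361 and 447 in cKO against 317 and 380 in het, and 1451876_a_at had 154 and 172 in cKO against 155 and 148 in het. The last, 1459581_at, followed the pair instead, with 387 on Ko_1210 and 861 on KO_1261 against 434 on het_1210 and 1082 on het_1261. Its difference was -0.25, opposite in sign to the other 3 probe sets, so a direction for Trp63 depends on the probe set. The mean of its probe sets gave 0.063. Isoforms with and without the transactivation domain, which differ in their first exons, were not told apart here.

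The AP-2 genes were as close. Tfap2a had signals of 3322 and 3166 in cKO (Ko_1210, then KO_1261) and of 2748 and 3625 in het (het_1210, then het_1261) at its brightest probe set, where the 2 cKO signals lay between the 2 het signals. The difference was 0.04 (0.27 and -0.20 within the first and second pair), and all 3 probe sets of Tfap2a had this pattern, higher in cKO within the first pair and lower within the second pair. Tfap2c had signals of 1987 and 2459 in cKO and of 1862 and 2367 in het, a difference of 0.07 (0.09 and 0.06). The other 2 probe sets of Tfap2c gave -0.13 and 0.02, again with no shared sign. The suffix _s_at of the brightest Tfap2c probe set and of the second one of Tfap2a marks probes that can match transcripts of more than 1 gene, so related AP-2 transcripts may add to those signals.

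Klf5, of the proliferating basal layer, had signals of 7808 and 7264 in cKO and of 8347 and 7205 in het at its brightest probe set. The difference of -0.04 (-0.10 and 0.01) had a 95% interval from -0.32 to 0.23 with the block. A dimmer Klf5 probe set, 1451739_at, differed by pair instead. It had 428 on Ko_1210 and 1169 on KO_1261 against 477 on het_1210 and 1043 on het_1261, a difference of 0.00 between the groups but 2.73-fold in cKO and 2.18-fold in het between the pairs. The remaining one, 1430255_at, had signals from 10.3 to 50.4, below the filter of 65.9 on the mean signal, and was the 1 probe set of the 21 that was not tested.

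Klf4, which is needed for the skin barrier, was higher in cKO within both pairs, by little. It had signals of 9426 and 13237 in cKO against 8767 and 11493 in het, a difference of 0.15 (0.10 and 0.20). The 95% interval ran from -0.61 to 0.92 without the block and from -0.11 to 0.42 with it. The second Klf4 probe set had 4397 and 5400 in cKO and 3515 and 5409 in het, where the 2 signals of the second pair were level. In both probe sets the step between the pairs exceeded that between the groups.

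Grhl3, a grainyhead factor of the barrier and of epidermal wound closure, has a single probe set here. Its signals were 654 and 796 in cKO and 690 and 649 in het, a difference of 0.11 (-0.08 and 0.29) and overlapping groups. The interval with the block was -0.29 to 0.50.

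Cebpb, a leucine zipper factor that with Cebpa restrains the growth of keratinocytes, had the most negative difference of the 9 genes. Its brightest probe set had signals of 3499 and 4247 in cKO and of 4704 and 4254 in het. Both cKO signals thus lay below both het signals, but the signals of the second pair were 4247 in cKO and 4254 in het, so the difference of -0.21 came from the first pair (-0.43, against -0.002 within the second pair). The interval was -0.81 to 0.38 without the block and -0.52 to 0.09 with it. The second Cebpb probe set gave -0.19 (-0.35 and -0.03) and its groups overlapped. Cebpb was the 1 gene of the 9 whose groups did not overlap, and of all tested genes 19.0% had groups that did not overlap.

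Gata3, which acts in the epidermis and in the inner root sheath of the hair follicle, had signals of 2529 and 1703 in cKO and of 2482 and 1803 in het. The groups were level within each pair (0.03 and -0.08), with a difference of -0.03 and an interval from -0.35 to 0.30 with the block. Its signal was lower in the second pair in both groups, at 0.674 and 0.726 of that in the first pair (cKO, then het).

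**Figure D2:**
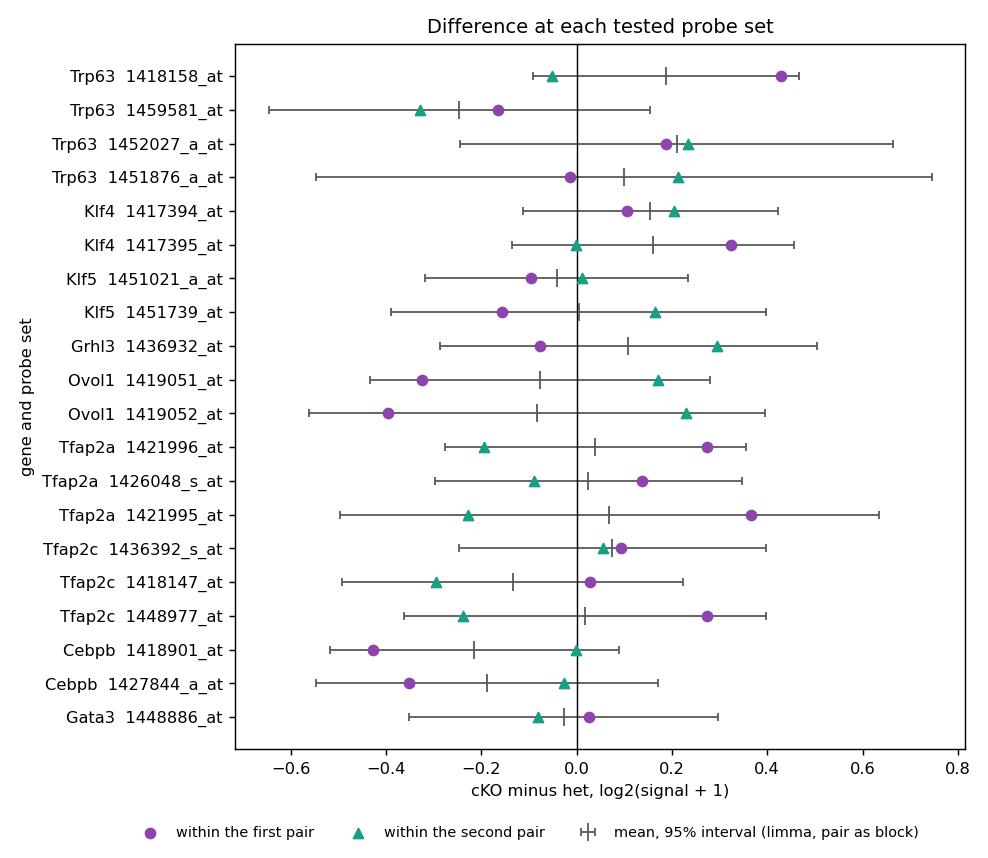
Difference between cKO and het on the log2 scale at the 20 tested probe sets of the 9 genes; circles give the first pair, triangles the second, and the bars give the mean with the 95% interval of limma with the pair as a block. Each interval includes 0, and the largest differences are -0.25 at a Trp63 probe set and 0.21 at another Trp63 probe set.

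Ovol1 stood apart by its step between the pairs. This gene encodes a zinc finger repressor that helps late progenitors leave the cell cycle. Its brighter probe set had signals of 555 on Ko_1210 and 2968 on KO_1261, against 695 on het_1210 and 2637 on het_1261. Within cKO the array of the second pair was 5.35-fold higher than that of the first pair, and within het it was 3.79-fold higher. The second probe set had the same order, with 124 and 889 in cKO and 163 and 759 in het, and ratios of 7.18 and 4.64 between the pairs. The difference between the groups was -0.08 (-0.33 within the first pair and 0.17 within the second pair), with a 95% interval from -2.65 to 2.49 without the block and from -0.43 to 0.28 with it. The narrower interval with the block rests mostly on a variance borrowed from the other probe sets (34.4 prior degrees of freedom, 1 residual). The 2 pairs of this gene alone do not bound the genotype difference that closely. Of the 9 genes Ovol1 alone differed over 2-fold between the pairs the same way in cKO and het, which 2.96% of all tested genes did. The step between the pairs was larger than the difference between the groups for 6 of the 9 genes, and for 74.1% of all tested genes.

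By the distance between the log2 values of the 4 arrays after subtraction of each gene's mean, the tested genes most like Ovol1 were Ifrd1 (distance 0.093), Ttc19 (0.094) and Plet1 (0.095). Ifrd1 had signals of 1730 and 8686 in cKO and of 2042 and 8268 in het, the same step between the pairs. Those most like Klf4, the gene with the next widest range, were Hpgds (0.031), Mbp (0.044) and Arhgap12 (0.046). With 4 arrays such a likeness is a description only.

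The 9 genes were set beside relatives from the same families. Of 17 paralogs 16 were measured and tested, 9 higher in cKO and 7 lower; their median was 0.08 (0.19 within the first pair and -0.05 within the second pair), and 0 passed with or without the block. Cebpd had 250 and 323 in cKO and 552 and 384 in het, a difference of -0.69 ± 0.24 (SE of limma with the block, as below; adjusted p = 0.230), which was -1.14 within the first pair and -0.25 within the second pair. Cebpa, the partner of Cebpb, had 1215 and 976 in cKO and 2156 and 1189 in het, a difference of -0.55 (adjusted p = 0.171 in limma with the block), and was named after its values were seen. The remaining C/EBP gene of the list, Cebpg, had 1193 and 1054 in cKO and 978 and 1075 in het, and was named after its values were seen too. Gata6 had 58.8 and 45.9 in cKO and 85.1 and 91.7 in het (-0.75 ± 0.52, adjusted p = 0.723 in limma with the block), near the filter. Klf13 had 2306 and 2422 in cKO and 1868 and 2299 in het (0.19 ± 0.16, adjusted p = 0.792 in limma with the block).

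A step between the pairs of over 2-fold the same way in both groups was found at 4 of the 16 paralogs, Klf2, Klf6, Klf9 and Klf10, named after their values were seen, against 2.96% of all tested genes. All 4 were higher in the second pair. Klf9 had signals of 775 and 3087 in cKO and of 701 and 3116 in het. Klf6 had 2000 and 5527 in cKO and 1410 and 6938 in het. Klf3, also named after its values were seen, was higher in the second pair by 1.72-fold in cKO and by 2.59-fold in het. Klf4, Klf5 and Klf13 did not differ by over 2-fold between the pairs in either group at their brightest probe set. Ovol2, the zinc finger relative of Ovol1, had 444 and 368 in cKO and 432 and 417 in het, and was also named after its values were seen.

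**Figure D3:**
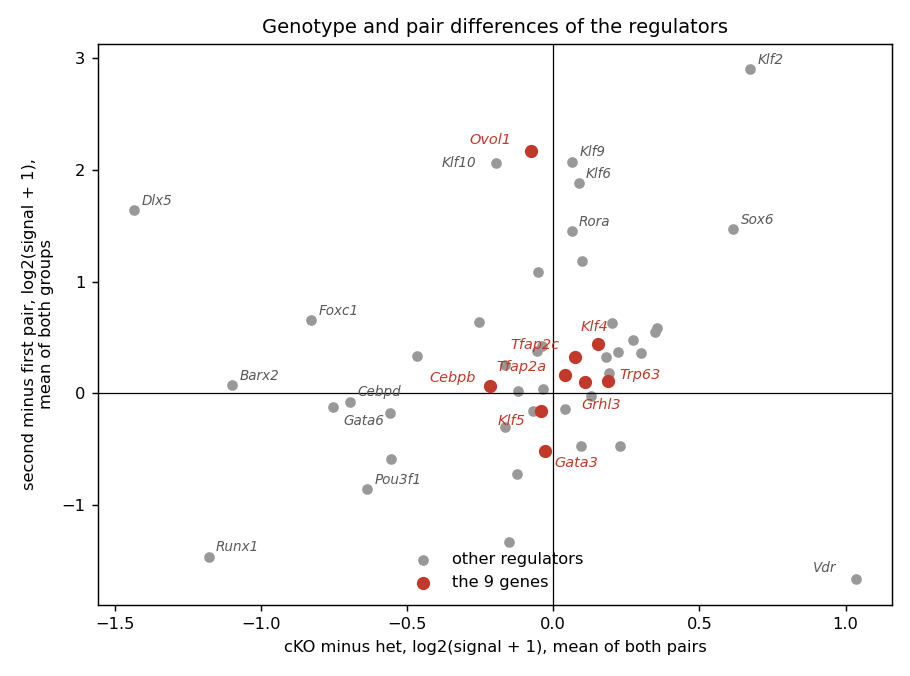
Each point is a gene, with the difference between cKO and het on the horizontal axis and the difference between the second and the first pair on the vertical axis, both in log2(signal + 1); the 9 genes are red and the tested paralogs and other epidermal transcription factors are grey. The red points lie between -0.21 and 0.19 on the horizontal axis, and Ovol1, at 2.17 on the vertical axis, sits beside Klf9 and Klf10.

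Other transcription factors of the epidermis gave 1 call. Of 30 listed, 28 were measured and 25 tested, 10 higher in cKO and 15 lower; their median was -0.12 (-0.20 and -0.11 within the first and second pair). Pou3f1, a POU factor of the suprabasal epidermis, fell with the block. It had signals of 1949 and 1151 in cKO and of 3251 and 1667 in het, where Ko_1210 exceeded het_1261 and each cKO array was below the het array of its pair. The difference was -0.64 ± 0.16 (-0.74 and -0.53; limma with the block, adjusted p = 0.0482). The call ended without the block, with a robust prior (0.0874) and without a variance trend (0.736). Barx2, a homeobox gene, had 50.7 and 113 in cKO and 230 and 115 in het (-1.10 ± 0.42). Casz1, a zinc finger gene, had 179 and 195 in cKO and 326 and 233 in het (-0.56 ± 0.27). Foxc1, a forkhead gene that dermal cells express too, had 44.6 and 98.3 in cKO and 111 and 126 in het (-0.83 ± 0.45). On Ko_1210 the signals of Barx2 and Foxc1 were below 65.9, the filter on the mean signal. Without Ko_1210 the difference was -0.53 for Barx2 and -0.27 for Foxc1. The groups of Barx2, Casz1 and Foxc1 did not overlap, part of the rule that named them, as for 19.0% of all tested genes. For each of these 3 genes the difference within the first pair was the larger one, and none passed in limma (adjusted p = 0.337, 0.534 and 0.601 with the block).

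Markers of other cells were read beside these genes. Of the 8 fibroblast markers 6 were lower and 2 higher in cKO, with a median of -0.63, while of all 11053 tested genes 5941 were lower. Their summed signal was 34678 and 36063 in cKO against 46478 and 39253 in het. Col3a1, Twist2 and Vim fell with the block (limma, adjusted p = 0.0301, 0.0451 and 0.0249), more within the first pair than within the second. Col3a1 differed by -0.62 (-0.98 and -0.26), Twist2 by -1.21 (-1.96 and -0.46) and Vim by -0.71 (-1.20 and -0.22). The 2 markers that were higher in cKO, and did not pass, were Pdgfra (0.75, with 91.2 and 155 in cKO and 58.3 and 84.4 in het) and Dcn (0.06), the brightest of the 8. The summed signal of 7 suprabasal markers was 91932 and 73988 in cKO and 145883 and 93409 in het, and Krt1, Krt10 and Sbsn, 3 of the 7, fell with the block (limma, adjusted p = 0.00128, 0.0034 and 0.0191). The cornified envelope genes Lor and Ivl, of the same list, were higher in cKO within the first pair and lower within the second, and did not pass. Lor had 3418 and 5705 in cKO and 1063 and 9592 in het, a difference of 0.47 (1.68 and -0.75). Ivl had 330 and 237 in cKO and 97.5 and 409 in het, a difference of 0.48 (1.75 and -0.78). The 6 leukocyte markers had a summed signal of 179 and 466 in cKO and of 559 and 472 in het. Only 2 of them were tested, and 1 of these, Laptm5, fell by 1.47 with the block (limma, adjusted p = 0.0367), against a difference of -0.43 as the mean of its probe sets. Of the 8 listed genes that passed with the block (these 7 and Pou3f1), Krt1, Krt10 and Sbsn passed also with a robust prior, Krt1 also with median centring, and 0 without a variance trend. With 1 array left out, which unbalances the pairs, all 8 stayed below 0 and 0 passed, but sizes moved. Without het_1210 the difference was -0.15 for Pou3f1, -0.34 for Krt1, -0.26 for Krt10, -0.33 for Sbsn, -0.41 for Col3a1 and -0.36 for Vim. Without het_1261 it was -1.12 for Pou3f1, -1.26 for Krt1 and -1.06 for Krt10. Without Ko_1210 it was -0.69 for Twist2 and -1.02 for Pou3f1, and without KO_1261 -0.26 for Pou3f1. The part of these cells in the values of Pou3f1, Barx2, Casz1, Foxc1 and the C/EBP genes was not tested, and in bulk samples fewer cells of a type and less RNA per cell cannot be told apart. The 7 melanocyte markers summed to 722 and 655 in cKO and to 1359 and 648 in het. The 5 endothelial markers summed to 217 and 254 in cKO and to 369 and 334 in het, and the 4 periderm markers to 355 and 581 in cKO and to 513 and 668 in het. The 4 skeletal muscle markers summed to 261 and 367 in cKO and to 347 and 396 in het. Of these lists 4 melanocyte, 3 endothelial, 3 periderm and 2 muscle markers were tested, and 0 passed. In the mean of both pairs all of those tested were lower in cKO except 1 muscle marker. Of those lower in the mean, Emcn was higher in cKO within the first pair (0.15). Pmel (0.51), Mitf (0.14), Kdr (0.03) and Des (1.29) were higher in cKO within the second pair. Merkel cell, erythroid and Schwann cell markers lay below the filter at every gene measured.

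Genes that these factors are known to control were read from lists as well. Of 25 listed p63 targets 22 were tested, 11 higher in cKO and 11 lower; their median was 0.003, and 0 passed with or without the block. Krt14 had signals of 53068 and 36033 in cKO and of 59598 and 35520 in het. Perp, a desmosomal target of p63, had 29528 and 25174 in cKO and 34272 and 23206 in het, and both genes were named after their values were seen. Not all targets were as level. Fgfr2 (0.58, adjusted p = 0.0963 in limma with the block), Fras1 (0.40), Fat2 (0.40) and Notch1 (0.36) were higher in cKO within both pairs. Cdkn1a (-0.52), Evpl (-0.32) and Sfn (-0.28) were lower within both pairs. These too were named after their values were seen. Igfbp3, a gene that p63 represses, had 436 and 365 in cKO and 865 and 547 in het, a difference of -0.79 ± 0.21 (-0.99 and -0.58) that did not pass (limma with the block, adjusted p = 0.0613). As the mean of its probe sets the difference was -0.47. Itga3, an integrin subunit of basal cells, had 2227 and 2143 in cKO and 1639 and 2037 in het (0.26 ± 0.16, adjusted p = 0.684 in limma with the block).

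Of 13 targets of the other factors, all tested, 6 were higher in cKO and 7 lower; their median was -0.07 (0.14 and -0.10 within the pairs). The 2 that fell with the block were Krt1 and Krt10, keratins of the spinous layer. Krt1 had 14593 and 12792 in cKO and 32610 and 17235 in het (-0.80 ± 0.14). Krt10 had 31135 and 24854 in cKO and 58187 and 33198 in het (-0.66 ± 0.13). The C/EBP genes differed by -0.21 for Cebpb, -0.55 for Cebpa, -0.69 for Cebpd and 0.13 for Cebpg, without a call. A link of these to Krt1 and Krt10 was not tested. Targets of the barrier program, named after their values were seen, did not share a direction. Tgm1, the transglutaminase that Grhl3 controls, had 226 and 335 in cKO and 169 and 237 in het (0.46 ± 0.26). Arhgef19, another target of Grhl3, had 625 and 342 in cKO and 965 and 467 in het (-0.54 ± 0.20), and neither passed. Myc, which Ovol1 represses and which was named after its values were seen, followed the pair as Ovol1 did, with 1302 and 2650 in cKO and 1089 and 2756 in het. Krt14 and Cdkn1a stand on both target lists, and Dlx3, Satb1 and Myc also on the list of transcription factors, so the lists are not independent. The marker lists share genes with the target lists too. Krt1, Krt10, Lor and Ivl are also suprabasal markers, and Krt5, Krt14, Krt15 and Itgb4 are p63 targets and basal markers. The calls of Krt1 and Krt10 here are thus the same calls as those among the suprabasal markers.

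**Figure D4:**
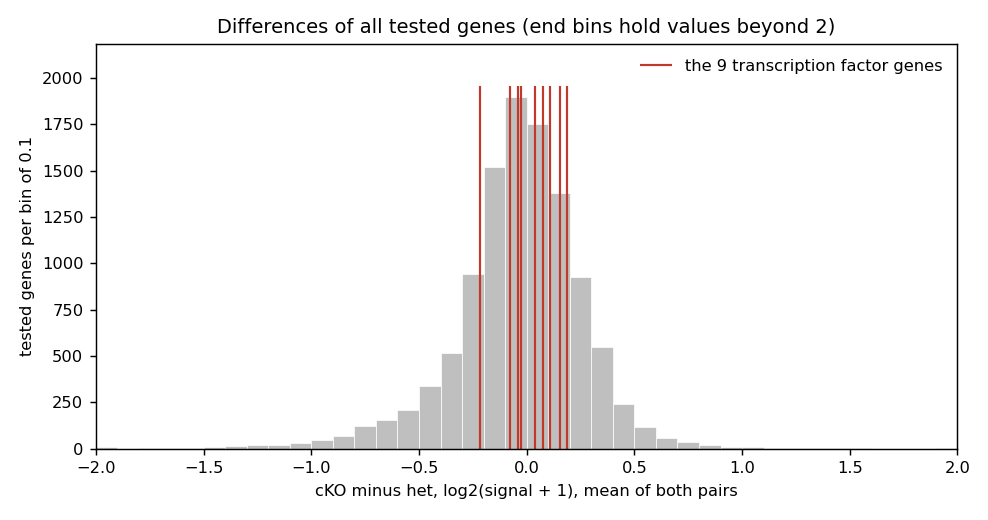
Grey bars count the 11053 tested genes by their difference between cKO and het in bins of 0.1 on the log2 scale, and the red lines mark the 9 transcription factor genes. All 9 lie between -0.21 and 0.19, and 62.4% of all tested genes had a difference no larger in size than that of Cebpb.

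The median size of the difference, regardless of sign, was 0.077 for the 9 genes and 0.16 for all tested genes. Of the 9, 3 (Klf4, Tfap2c and Cebpb) had the same sign within both pairs, which 56.0% of all tested genes had, and 0 differed by over 1.5-fold the same way within both pairs, which 1.99% did. These values describe the 9 genes and do not show that they are steadier than others, since a p that misses the threshold does not show equal levels. With the block, the 95% intervals of the brightest probe sets stayed between -0.52 and 0.50, and without it they reached from -2.65 to 2.49 for Ovol1 and from -0.83 to 0.92 for the other 8 genes.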

How the data were processed

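RNA was labelled with biotin for 1-colour 3' arrays, per the labels' protocols. The authors made the deposited table with MAS5 (version not given in the sources used here), according to the submitters' processing notes, and it holds 1 linear intensity per probe set and array. On every array the mean of the deposited intensity, with 2% trimmed at each end, was 500, so a change common to all genes is not visible, and signals near background are imprecise. Replicates were the 2 arrays of each group, whose number limits the precision.

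Of 45101 probe sets, 64 controls were left out. Symbols came from the platform annotation, updated by Entrez identifier (34741 of 34945 probe sets with 1 symbol; 932 had several and 9160 none). Each gene was read from its brightest probe set. Values were taken as log2(signal + 1), a scale that understates changes of dim genes, and the 22518 probe sets above the median (a signal of 65.9), which represent 11053 genes, were tested with limma 3.58.1 in R 4.3.3 (eBayes with a variance trend), two-sided, without a block. The deviations of same-numbered arrays from their group means correlated at 0.755, but no label explains the title numbers, so 2 such pairs do not show shared animals; the pair was therefore also fitted as a block, with 1 residual degree of freedom and 34.4 prior ones. 2 differences in brackets are those within the first and the second pair. The pipeline was tested on simulated data. Tables and plots used Python 3.11.15, pandas 2.3.3 and matplotlib 3.10.9.

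Genes other than the 9 were named by a rule: those past the threshold in either fit, and, in each list of regulators or targets, the 3 with the largest difference among genes whose groups did not overlap. Other genes were named after their values were seen, as the text says where it gives them, among them Pdgfra, Dcn, Lor and Ivl. The 9 genes and the lists were chosen with earlier results of these data known. Some listed genes were not analysed here.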

Additional observations from a re-analysis of the deposited data

How the results depend on the processing

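No setting called any of the 9 genes. Over all genes, 0 passed without the block. The replicate block, with the pair as the block, gave 97, with a robust prior 50, with median centring 52 (30 higher, 22 lower) and without a variance trend 0. Leaving out 1 array gave 0 to 2 calls (2 without Ko_1210, 1 without KO_1261).

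The median of the 9 genes, 0.039, became 0.16 under median centring with and without the block, where that of all tested genes became 0.098. It was 0.0058 under quantile normalization and -0.014 with the mean of the probe sets of a gene. It ranged from -0.041 to 0.24 with 1 array left out, when the pairs were unbalanced between the groups.

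Signs of small differences turned. Under median centring, with and without the block, Klf5 became 0.080, Ovol1 0.045 and Gata3 0.094. With the mean of probe sets Tfap2c became -0.014. Over the 4 arrays left out in turn, Ovol1 ranged from -1.29 to 1.13, Klf4 from -0.091 to 0.40, Klf5 from -0.15 to 0.064, Grhl3 from -0.034 to 0.25, Tfap2a from -0.16 to 0.24, Tfap2c from -0.099 to 0.25 and Gata3 from -0.31 to 0.26; Ovol1 was 0.88 without het_1261 and 1.13 without Ko_1210. Trp63 (0.014 to 0.36) and Cebpb (-0.35 to -0.075) kept their sign. Signal over background limits the dim probe sets most.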
